A study of Mus musculus with 12 samples.

Results

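The 10 genes described here, Pdgfra, Tcf21, Dcn, Lum, Dpt, Gsn, Mfap5, Pi16, Cd248 and Cd34, mark the resting fibroblasts of the mouse heart. They were chosen by symbol, and all 10 were listed among the 17952 genes of the deposited tables. Resting cardiac fibroblasts lie between the muscle cells, keep up the collagen network and mostly descend from the epicardium. After an infarct they divide, turn on contractile and collagen genes, and lower part of their resting programme. The genes used to recognise the resting state encode a growth factor receptor and other surface proteins, a transcription factor, matrix proteins that bind collagen or elastic microfibrils, and an actin-severing protein.

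The data are RNA-seq of 12 samples of sorted cells from infarcted mouse hearts, 3 in each of 4 groups. All mice had the genotype p16-2A-CreER;R26-mTmG, in which tamoxifen-dependent Cre made from the p16 locus turns on GFP, and all had a myocardial infarction, tamoxifen by gavage on day 5 and harvest of the infarct zone on day 7. Cardiomyocytes were removed, and PDGFRα-high or F480-high cells were sorted into GFP-high cells, called P16hi, and GFP-low cells, called P16lo. GFP records Cre activity after tamoxifen, so a P16lo cell is one with little GFP, not one shown to lack p16. Uninfarcted hearts were not analysed here. Whether the 3 samples of a group are separate animals is not stated in the labels, and p-values therefore reflect the spread among these samples alone, part of which may be technical.

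Total counts ran from 3.16 M to 18.9 M per PDGFRα-high library and from 15.5 M to 27.9 M per F480-high library (M, 1000000 counts). Levels below are CPM, counts per 1000000 of a library size scaled by TMM over all 12 libraries. Marker genes of other cell types were present in both sorts. Among PDGFRα-high libraries the summed CPM of 13 macrophage markers ran from 2110 in P16lo library 3 to 30680 in P16lo library 1. Among F480-high libraries it was 4006 in P16lo library 3 and 16760 to 63050 in the other 5. That F480-high P16lo library 3 also had the highest B cell marker sum, 6739 CPM, and F480-high P16hi library 3 had an endothelial marker sum of 4970 CPM against 72.7 to 162 in the other 5 F480-high libraries. The main calls that include these F480-high libraries are also given without them.

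Promoter windows, the 250 bases before an annotated transcription start, were found for 6 of the 10 genes in RefSeq, build GRCm38.p6. The windows of 4 of them are shown because these genes differ in kind. They are Tcf21, the transcription factor among them, Dpt, a matrix gene, and Gsn and Cd34, the pair whose ratio is described further on. Capitals mark CAGCTG, an E-box of the kind that basic helix-loop-helix factors such as TCF21 bind. The Tcf21 window lies at chr10:22820144-22820393 on the minus strand, that of Dpt at chr1:164796413-164796662, that of Gsn at chr2:35256109-35256358 and that of Cd34 at chr1:194938571-194938820, the last 3 on the plus strand.
Tcf21: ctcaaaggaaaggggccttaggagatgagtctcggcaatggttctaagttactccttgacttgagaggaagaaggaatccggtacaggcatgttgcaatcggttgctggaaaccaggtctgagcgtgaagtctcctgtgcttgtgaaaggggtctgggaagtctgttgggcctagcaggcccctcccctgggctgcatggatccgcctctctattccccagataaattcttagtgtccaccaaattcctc
Dpt: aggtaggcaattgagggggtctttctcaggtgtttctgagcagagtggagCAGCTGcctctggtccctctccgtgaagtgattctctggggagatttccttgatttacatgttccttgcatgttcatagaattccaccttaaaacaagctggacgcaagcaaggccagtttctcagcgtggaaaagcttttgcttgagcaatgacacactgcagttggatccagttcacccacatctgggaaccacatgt
Gsn: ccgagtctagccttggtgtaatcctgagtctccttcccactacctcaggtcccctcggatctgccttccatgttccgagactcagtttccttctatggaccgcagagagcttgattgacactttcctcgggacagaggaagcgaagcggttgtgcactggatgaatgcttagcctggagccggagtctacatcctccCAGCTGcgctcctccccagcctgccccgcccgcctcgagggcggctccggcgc
Cd34: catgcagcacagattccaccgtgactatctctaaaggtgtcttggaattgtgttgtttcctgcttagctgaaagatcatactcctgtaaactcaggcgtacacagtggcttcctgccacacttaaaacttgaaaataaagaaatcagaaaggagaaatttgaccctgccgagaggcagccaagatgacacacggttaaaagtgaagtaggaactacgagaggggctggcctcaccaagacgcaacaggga
CAGCTG began at position -200 from the start in the Dpt window and at -53 in that Gsn window, and was not in the Tcf21 and Cd34 windows. Gsn has 3 annotated starts in the table. The window at chr2:35266494-35266743 holds CAGCTG at -216, and the window at chr2:35282130-35282379 does not hold it. Only for this last window, without CAGCTG, were the bases just after the start found in an annotated Gsn transcript. For the Gsn window shown above they were not. CAGCTG occurs on either strand in 13% of the 32851 RefSeq promoter windows of this length. A further 3 motifs were searched on both strands and found in none of the 8 windows of these 6 genes. The TATA box letters, TATAAA, are in 12.4% of all windows. The letters of an AP-1 site, TGANTCA, are in 6.75%. The letters of a TEAD site, GGAATG, are in 12.6%. A match or its absence describes only these letters.

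In PDGFRα-high cells the 10 genes rose and sank together from library to library, and the largest differences were between libraries of the same group. All 10 were highest in P16lo library 3 and next highest in P16hi library 3. P16lo library 1 was the lowest for 9 of them, and P16lo library 2 for Tcf21. The highest library exceeded the lowest by 7.17-fold for Cd34 to 43.3-fold for Dpt, with a median of 30.7-fold over the 10 genes. The median correlation between pairs of these genes on log2(CPM + 1) was 0.94 over these 6 libraries, which share their makeup and scaling.

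**Figure D1:**
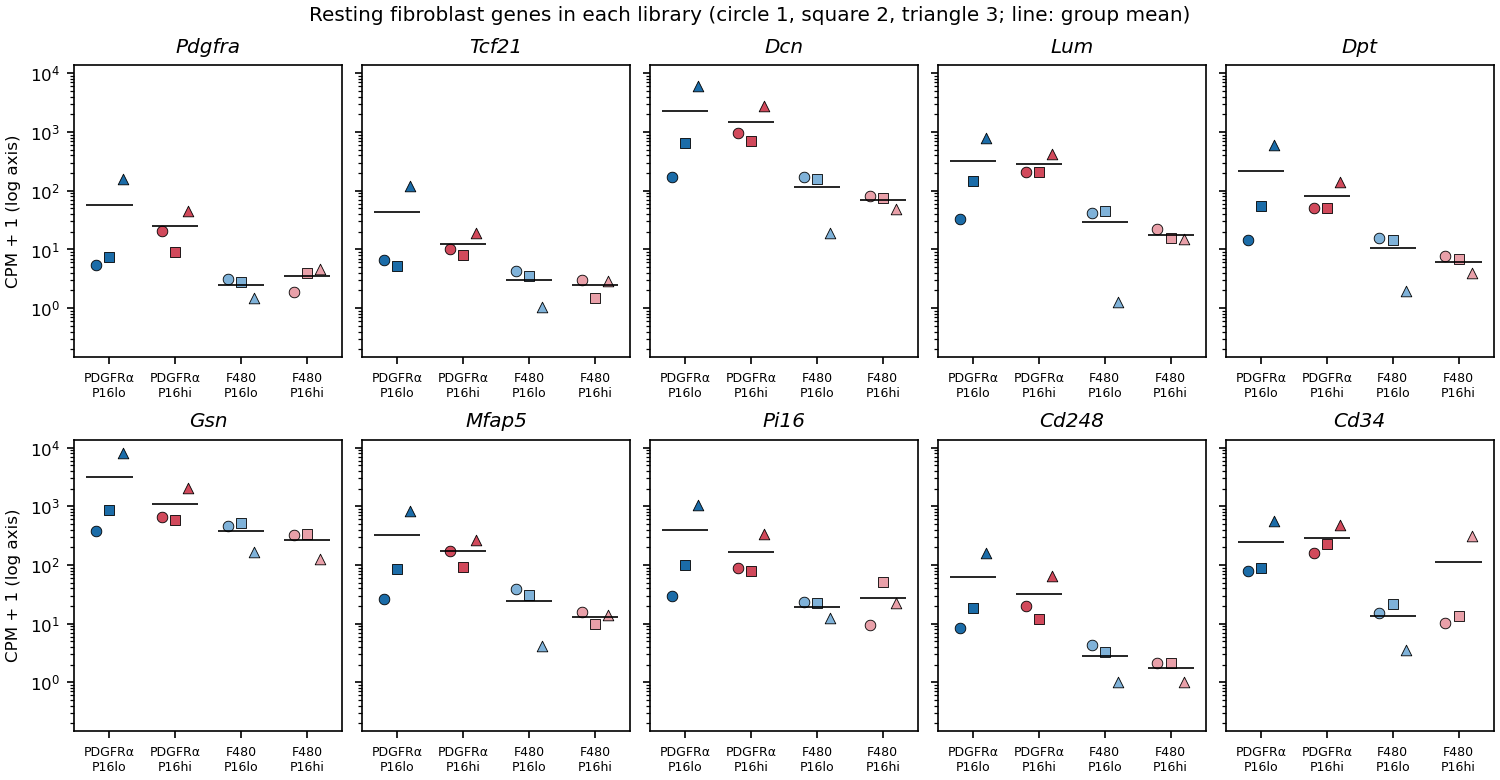
Level of each resting fibroblast gene in each library, as CPM + 1 on a log axis, for the 4 groups of 3 libraries. Circles, squares and triangles are libraries 1, 2 and 3, and the line is the group mean. In PDGFRα-high cells the triangle of P16lo stands highest in all 10 panels.

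Pdgfra, the receptor for platelet-derived growth factors and the gene of the sort antibody (chr5:75151322-75198206, plus strand), was measured at 4.46, 6.48 and 158 CPM in the P16lo libraries and at 19.3, 8.23 and 44.5 CPM in the P16hi libraries. Tcf21, a transcription factor of epicardium-derived fibroblasts (chr10:22817263-22820143, minus strand), was at 5.70, 4.28 and 119 CPM in P16lo and at 9.05, 6.94 and 18.2 CPM in P16hi. For both genes the P16hi libraries lay between the low P16lo pair and the high P16lo library, so the groups overlapped.

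Dcn and Lum encode decorin and lumican, small leucine-rich proteoglycans that bind collagen fibrils, and are neighbours on chromosome 10 (chr10:97479500-97518163 and chr10:97565501-97572703, both plus strand). No protein-coding gene lies in the 47337 bases between them. Dcn was at 171, 646 and 6150 CPM in P16lo and at 952, 705 and 2789 CPM in P16hi. Lum was at 31.4, 148 and 794 CPM in P16lo and at 207, 206 and 430 CPM in P16hi. Every P16hi value of both genes exceeded P16lo libraries 1 and 2 and was below P16lo library 3.

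Dpt encodes dermatopontin, a matrix protein that binds decorin (chr1:164796663-164824274, plus strand), and was at 13.7, 54.8 and 591 CPM in P16lo and at 50.2, 49.4 and 142 CPM in P16hi. Mfap5, a component of elastic microfibrils (chr6:122513584-122529290, plus strand), was at 25.1, 84.9 and 844 CPM in P16lo and at 170, 90.2 and 264 CPM in P16hi. Gsn encodes gelsolin, which severs actin filaments (chr2:35256359-35307902, plus strand), and was at 375, 872 and 8174 CPM in P16lo and at 647, 590 and 2040 CPM in P16hi. For Dpt and Gsn, P16lo library 2 exceeded P16hi libraries 1 and 2, whereas for Mfap5 it was below them.

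Pi16, a secreted CAP-family protein that marks adventitial fibroblasts (chr17:29318796-29328903, plus strand), was at 29.2, 98.3 and 1055 CPM in P16lo and at 88.7, 79.1 and 333 CPM in P16hi. Cd248, the surface protein endosialin (chr19:5068078-5070640, plus strand), was at 7.38, 17.6 and 159 CPM in P16lo and at 18.7, 11.1 and 64.6 CPM in P16hi. Cd34, a surface sialomucin of fibroblast progenitors and also of endothelial cells (chr1:194938821-194961292, plus strand), was at 79.3, 87.5 and 569 CPM in P16lo and at 157, 226.8 and 488 CPM in P16hi. Cd34 had the narrowest range of the 10 genes in PDGFRα-high cells.

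Levels between genes were compared per length, as TPM rebuilt from the deposited FPKM. Dcn had the highest mean of the 10 genes in both PDGFRα-high groups, 675 ± 817 TPM in P16lo and 1175 ± 1105 TPM in P16hi (SD, n = 3 each), followed by Gsn at 646 ± 730 and 592 ± 546 TPM. Pdgfra had the lowest, 4.24 ± 5.95 and 5.14 ± 4.68 TPM. Between these, the means ran from 12.9 TPM for Cd248 to 118 TPM for Mfap5 in P16lo, and from 14.0 TPM for Tcf21 to 194 TPM for Lum in P16hi. Of the 9 neighbouring pairs in this order, 5 in P16lo and 6 in P16hi kept it in all 3 libraries of the group. Among them, Gsn was above the next gene in every library of both groups. The order of Dcn and Gsn held in all 3 P16hi libraries and in 2 of the 3 P16lo libraries. Pi16 and Lum, Dpt and Cd34, and Tcf21 and Cd248 in P16lo, and Lum and Mfap5, Mfap5 and Cd34, and Cd248 and Tcf21 in P16hi, did not keep their order.

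The comparison of P16hi with P16lo PDGFRα-high cells asks whether fibroblasts with high p16 reporter differ in resting genes, and none of the 10 genes passed the test. The log2 fold change ran from -1.90 for Tcf21 (SE 1.25) to 0.25 for Cd34 (SE 0.84), with 1 of 10 above 0 against 40.4% of all genes tested, and a median of -1.08 against -0.17 over all genes tested. The edgeR quasi-likelihood test with Benjamini-Hochberg adjustment gave an adjusted p of 0.875 for Tcf21, and it called 0 of 13262 genes (0%). An unadjusted p under 0.05 was reached by 637 genes that were higher (4.8%) and 222 that were lower (1.67%), none of them among the 10. DESeq2 called 304 genes and limma on log2(TPM + 1) called 177, again with 0 of the 10. The 95% interval of the fold for Dcn, P16hi over P16lo, ran from 0.127 to 3.22, so a large difference in either direction lies within it. The groups overlapped for all 10 genes, whereas 7.82% of genes tested were higher and 6.97% lower without overlap.

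The signs depended on which libraries were in the fit. Without P16lo library 3 all 10 genes were above 0, from 0.81 for Gsn to 2.14 for Pdgfra, with a median of 1.52. In that fit Pdgfra, Mfap5 and Cd34 reached an unadjusted p under 0.05, and the smallest adjusted p of the 10 in edgeR was 0.343. Of 13530 genes tested there, 886 higher and 528 lower genes reached that unadjusted threshold. Cd34, above 0 with all 6 libraries, was below 0 without P16lo library 1 (-0.17), P16lo library 2 (-0.15) or P16hi library 3 (-0.36), and the other 9 genes were below 0 in those fits too. Lum was at 0.0063 without P16hi library 2. Limma on log2(TPM + 1) put all 10 above 0, from 0.12 to 1.48 with a median of 0.58, while the median of all genes moved to 0.45. With library totals in place of TMM the median of the 10 was -0.31 and that of all genes 0.24. The cause of these shifts was not tested. P16lo library 3 also had the highest summed erythroid markers, 639200 CPM, and with hemoglobin genes left out of the scaling the values ran from -1.88 to 0.27. As a share of raw counts, which depends on what else a library holds, the 10 genes took 1.31% of that library against 0.0792% to 0.876% of the other 5. Erythroid markers took 45.1% of its raw counts, against 0.244% to 18.8% of the other 5.

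**Figure D2:**
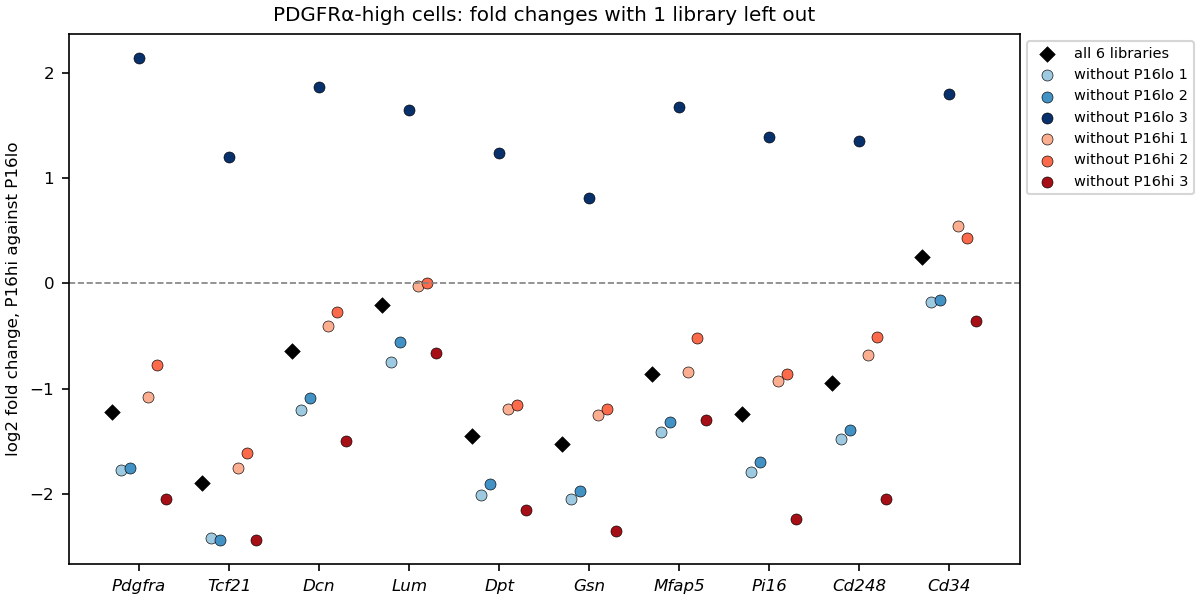
Log2 fold change of each gene in PDGFRα-high cells, P16hi against P16lo, from all 6 libraries (diamonds) and with 1 library left out (circles). The dark blue circles, without P16lo library 3, lie above 0 for all 10 genes, from 0.81 to 2.14.

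Neither the other resting fibroblast genes nor the genes of the activated programme had a member called in this comparison. Of 25 other resting genes 4 were above 0 and 21 below, with a median of -1.21; the smallest unadjusted p was that of Ly6a, a surface marker of progenitor-like fibroblasts and of endothelium, at a log2 fold change of 1.34 (SE 0.50, adjusted p = 0.686 in edgeR). Of 21 activated genes 2 were above 0 and 19 below, with a median of -0.65. These signs too changed without P16lo library 3, where 24 of 25 other resting genes were above 0 with a median of 1.28, and 17 of 21 activated genes with a median of 1.10. The sum of the 10 genes over the sum of the activated genes was 0.568, 0.651 and 1.09 in P16lo and 0.438, 0.919 and 1.13 in P16hi, which overlapped. All 10 microfibril and elastic fibre genes other than Mfap5 and 8 of 9 other leucine-rich proteoglycans tested were below 0, none past the threshold.

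Within each group of PDGFRα-high cells, the library with the most RNA of the 10 genes had the least of macrophage markers. The summed CPM of the 10 genes was 742, 2020 and 18610 in P16lo and 2320, 1974 and 6614 in P16hi, while the macrophage marker sum was 30680, 7560 and 2110 in P16lo and 18630, 13420 and 6533 in P16hi. P16lo library 1, with the highest macrophage sum of the 6, had a sum of the 10 genes within the range of the F480-high libraries, 205 to 810 CPM. In sorted bulk RNA, fewer fibroblasts and less of these transcripts per fibroblast cannot be told apart. Cardiomyocyte markers summed to 2637 to 9173 CPM in P16hi and to 280 to 376 CPM in P16lo, and endothelial markers, Cd34 being an endothelial gene too, to 2371 to 3964 CPM in P16hi and 536 to 1093 CPM in P16lo. The part of these cells in the result was not tested.

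**Figure D3:**
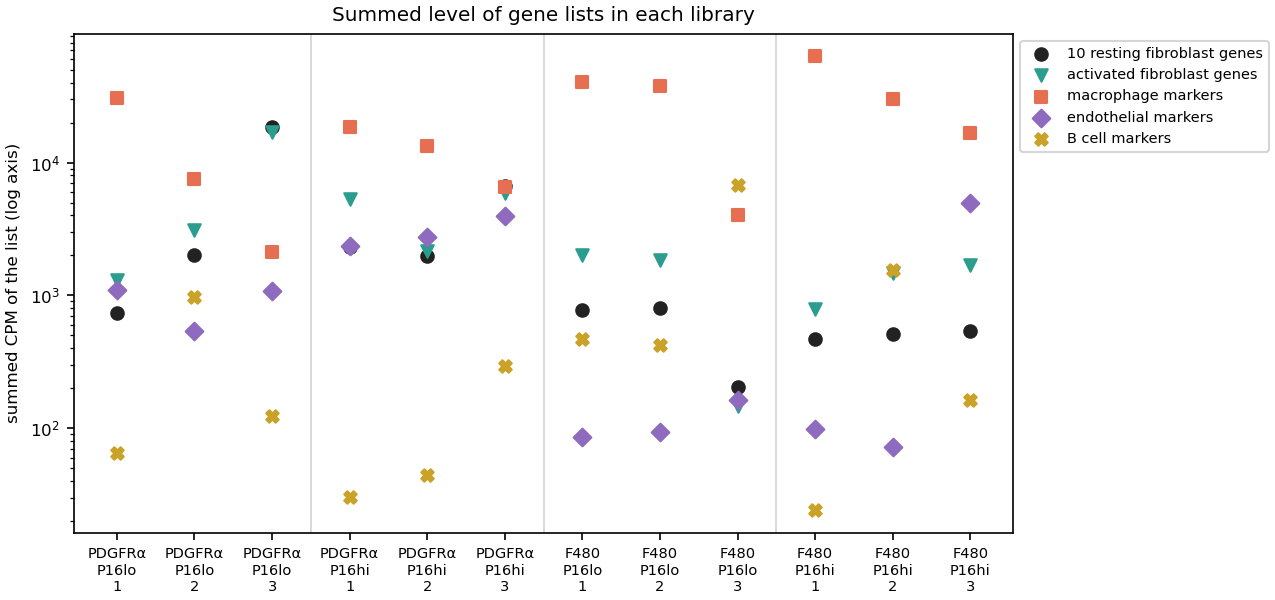
Summed CPM of 5 gene lists in each of the 12 libraries, on a log axis. The 10 resting fibroblast genes and the activated fibroblast genes are highest in PDGFRα-high P16lo library 3, where macrophage markers are at their lowest, 2110 CPM.

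Ratios between genes of the same library do not depend on scaling. Of the 45 ratios between pairs of the 10 genes, 9 (20%) did not overlap between P16hi and P16lo PDGFRα-high cells, which is near the 16.2% of all gene pairs. Gsn was in 5 of the 9 and Dcn in 4, with 1 pair shared. Dcn over Gsn, in TPM, was 0.664, 1.08 and 1.09 in P16lo and 2.14, 1.75 and 2.01 in P16hi. Lum over Gsn was 0.109, 0.222 and 0.125 in P16lo and 0.417, 0.458 and 0.277 in P16hi. Mfap5, Pi16 and Cd34 were likewise higher relative to Gsn in every P16hi library than in any P16lo library. The mean log2 ratio was higher in P16hi by 1.08 for Dcn, 1.36 for Lum, 0.98 for Mfap5, 0.47 for Pi16 and 1.31 for Cd34. Of 9617 genes with at least 10 counts in every library, 2.21% were higher relative to Gsn without overlap and 0.0104% lower. Dcn was higher relative to Dpt, Pi16 and Cd248, by 0.60, 0.61 and 0.69 on the log2 scale, and Lum relative to Dpt by 0.88. Relative to Dcn, 0.0832% of genes were higher and 0.478% lower without overlap. These ratios were singled out after the values were seen and carry no test. In F480-high cells 0 of 36 such ratios separated the groups, where 7.15% of all gene pairs did. There, 5.36% of genes were higher and 0.213% lower relative to Gsn, and 2.16% and 0.116% relative to Dcn.

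**Figure D4:**
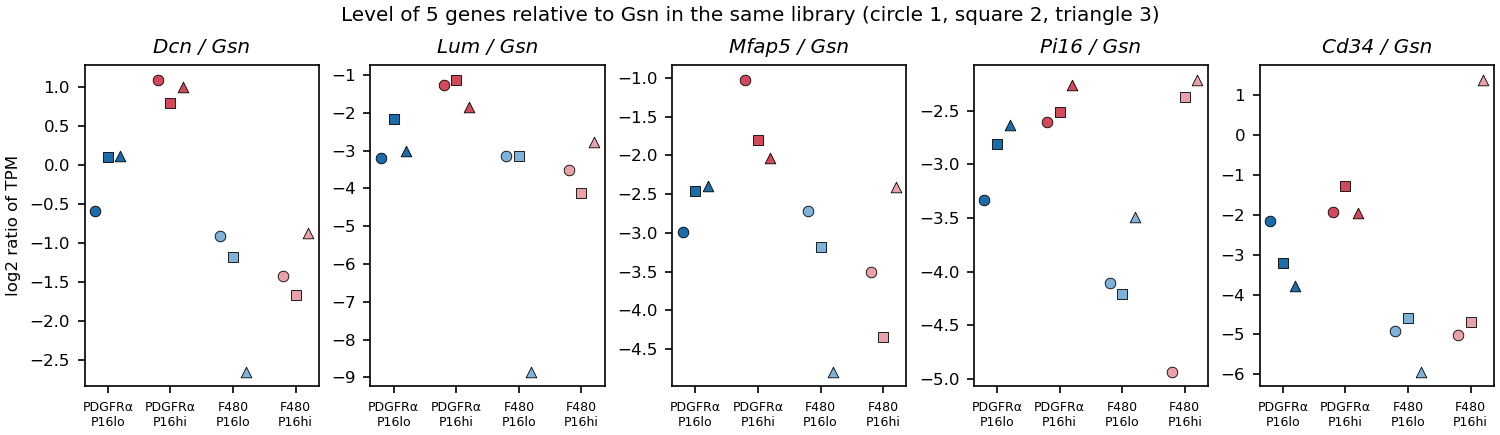
Log2 ratio of the TPM of 5 genes to that of Gsn in the same library, for the 4 groups of 3 libraries (circle, square and triangle are libraries 1, 2 and 3). The 5 genes were picked because their ratio to Gsn did not overlap between groups in PDGFRα-high cells. Every P16hi point therefore lies above every P16lo point there in each panel. The ratios of Pdgfra, Tcf21, Dpt and Cd248 to Gsn overlapped and are not drawn. In F480-high cells the groups overlap.

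In F480-high cells the 10 genes were lower than in PDGFRα-high cells in the fit over all 12 libraries. Only Dcn, Pdgfra, Tcf21 and Cd248 were lower in every F480-high library than in any PDGFRα-high library. By group mean per length Gsn, which macrophages also express, was the highest of the 10, at 167 ± 79.9 TPM in P16lo and 125 ± 51.3 TPM in P16hi (SD, n = 3 each). In P16hi library 3, however, Cd34 was above Gsn, at 179 against 69.0 TPM. Leaving out the libraries numbered 3, Gsn was at 186 and 236 TPM in P16lo and at 135 and 170 TPM in P16hi. Dcn was at 171, 157 and 18.4 CPM in P16lo and at 81.7, 73.7 and 48.4 CPM in P16hi. Gsn was at 466, 516 and 168 CPM in P16lo and at 320, 342 and 128 CPM in P16hi. P16lo library 3 was the lowest library for 8 of the 10 genes. There, Tcf21 had 1 count and Lum 7 counts. Cd248 had 0 counts in that library and in P16hi library 3, which allows levels up to 0.122 and 0.165 CPM (3 counts, counting error only).

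None of the 10 genes passed the test between P16hi and P16lo F480-high cells, where edgeR called 0 of 12490 genes (0%). An unadjusted p under 0.05 was reached by 242 higher genes (1.94%) and 38 lower ones (0.304%), none of the 10 among them, and DESeq2 called 3 genes and limma 0. That balance changed without P16lo library 3, where 74 higher and 123 lower of 12931 genes reached that unadjusted threshold. It also changed without both libraries numbered 3, where 139 higher and 305 lower of 12682 genes did. In both of these fits Dcn, Lum, Dpt and Mfap5 were among the lower genes, at log2 fold changes from -1.41 for Mfap5 to -1.23 for Dcn without P16lo library 3 and from -1.49 for Mfap5 to -1.06 for Dcn without both. None passed the adjusted threshold, and the smallest adjusted p of the 10 in edgeR was 0.9996 and 0.9995. In both fits the P16lo group was libraries 1 and 2 alone, whose log levels correlated at a Pearson r of 0.991. Other same-group pairs of F480-high libraries ran from 0.742 to 0.877. The unadjusted p-values of these fits therefore rest on a P16lo spread between 2 very similar libraries. The log2 fold change ran from -1.25 for Cd248 (SE 1.94) to 3.27 for Cd34 (SE 1.56), both with an adjusted p of 0.999 in edgeR, and 3 of 10 were above 0 against 50% of all genes tested. The groups overlapped for all 10 genes, while 2.95% of genes tested were higher and 3.94% lower without overlap. Cd34 was at 14.4, 20.4 and 2.56 CPM in P16lo and at 9.18, 12.7 and 310 CPM in P16hi. Its high value came from P16hi library 3, the library with the high endothelial sum, and without that library the log2 fold change of Cd34 was -0.17. With the column block of the table as a term, 9 of 10 genes were above 0, and none was called.

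Between the sorted populations, all 10 genes were higher in PDGFRα-high than in F480-high cells, and 7 passed the test. Pdgfra is one of the 7, at a log2 difference of 4.27 (SE 0.95), and as the gene of the sort antibody it is no finding here. Adgre1, the gene of the F480 antibody, overlapped between the sorts. It was at 27.5 to 740 CPM in PDGFRα-high and at 35.6 to 1873 CPM in F480-high libraries. The edgeR test over all 12 libraries called Cd248 at 5.18 (SE 1.24, adjusted p = 0.0388), Dcn at 4.39 (SE 0.90, adjusted p = 0.0306) and Dpt at 4.23 (SE 0.94, adjusted p = 0.035). It also called Mfap5 at 3.79 (adjusted p = 0.036), Lum at 3.78 (adjusted p = 0.048) and Pi16 at 3.53 (adjusted p = 0.0388). Tcf21 at 3.68 (adjusted p = 0.0559), Cd34 at 2.85 (adjusted p = 0.0859) and Gsn at 2.54 (adjusted p = 0.0581) did not pass. Of 14073 genes tested 892 were called (6.34%), 520 higher (3.7%) and 372 lower (2.64%), and 53.3% were above 0. Of the 10, Dcn, Pdgfra, Tcf21 and Cd248 were higher in every PDGFRα-high library than in any F480-high library and none was lower in that way, against 2.3% and 1.82% of all genes tested. For Dcn the margin was narrow, 171.4 CPM in the lowest PDGFRα-high library against 171.2 CPM in the highest F480-high library. The same values were 4.46 against 3.63 CPM for Pdgfra, 4.28 against 3.365 CPM for Tcf21 and 7.38 against 3.275 CPM for Cd248.

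**Figure D5:**
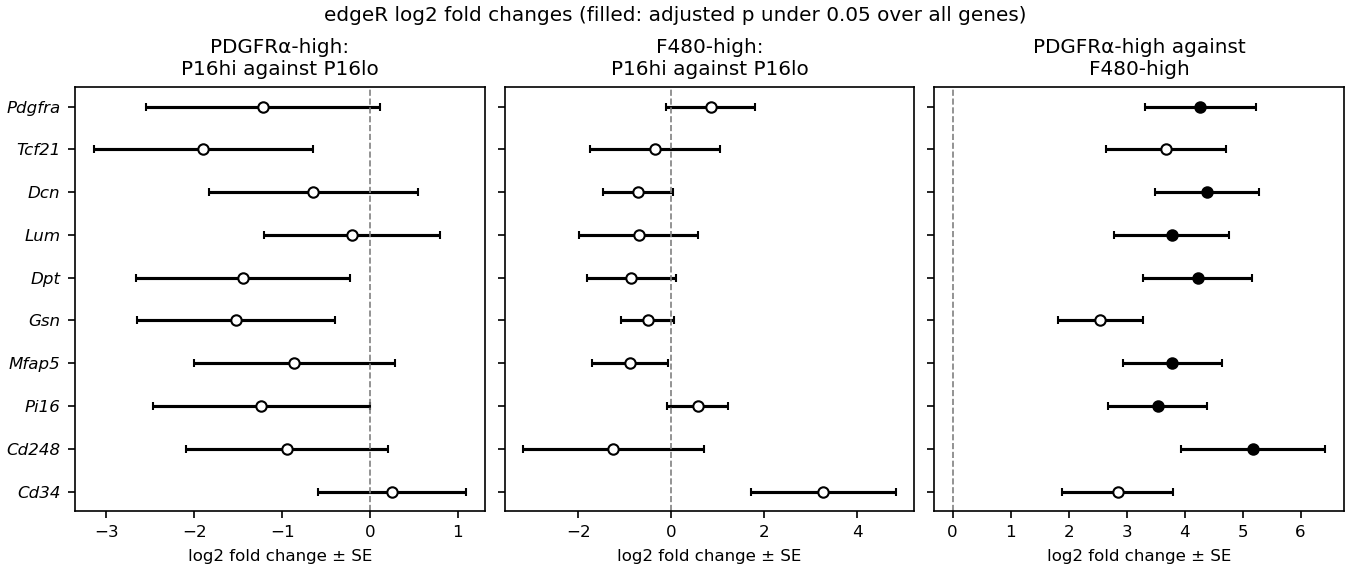
Log2 fold change with its standard error for each gene in 3 comparisons fitted with edgeR; filled points have an adjusted p under 0.05 over all genes tested. Filled points appear only in the comparison of PDGFRα-high with F480-high cells, where 7 of 10 genes are filled and all 10 lie above 0.

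These calls depended on single libraries, although all 10 differences stayed above 0 in every setting run. With 1 library left out, between 0 and 9 of the 10 genes were called in edgeR. None was called without PDGFRα-high P16lo library 3, P16hi library 2 or P16hi library 3, or without F480-high P16lo library 1, P16lo library 2, P16hi library 1 or P16hi library 2, and 1 was called without PDGFRα-high P16hi library 1. Calls over all genes fell in the same fits, from 892 with all 12 libraries. In the order named, the PDGFRα-high omissions of the first kind left 113, 7 and 144 genes. The F480-high omissions left 0, 0, 64 and 96 genes, and that of PDGFRα-high P16hi library 1 left 420. These fits tested 14388 to 14629 genes. Among F480-high libraries, P16lo library 3 had the highest B cell marker sum and P16hi library 3 the highest endothelial marker sum. Without both, an omission added after the data were seen, 8 of the 10 were called, beside 3190 of 14492 genes. All 10 were called, beside 3381 of 14277 genes, without PDGFRα-high P16lo library 1 as well, an omission chosen after the data were seen. Because that library was the lowest PDGFRα-high library for 9 of the 10 genes, leaving it out raises the difference by construction. The populations were deposited as separate tables, so population and table cannot be told apart.

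Related genes separated the populations to differing degrees. Of 25 other resting fibroblast genes 12 were called higher, among them Clec3b, which encodes tetranectin, at 5.61 and Entpd2, a surface nucleotidase, at 4.78. Of 21 activated genes 2 were called higher, Acta2 at 3.19 and Tagln at 2.74, both contractile proteins. Called or not, 19 of the 21 were above 0, with a median of 2.91. Among the 25 other resting genes 24 were, with a median of 3.45. Of the 9 other leucine-rich proteoglycans tested 4 were called higher, including Prelp at 4.24 and Ogn at 4.06, and of 10 microfibril genes Mfap2 was, at 3.89. Pdgfrb, the other PDGF receptor, was called at 3.51, and 3 of 12 fibroblast and epicardial transcription factors were, with Gata4 at 5.67. In the gelsolin family Flii was lower, at -0.87. Markers of other cell types also separated the populations: 7 of 12 cardiomyocyte, 5 of 7 erythroid and 6 of 10 T and NK cell markers were called higher in PDGFRα-high cells, while 1 of 13 macrophage markers, Cd14, was lower, at -2.73. Without both F480-high libraries numbered 3 the calls were 15 of 25 other resting and 7 of 21 activated genes, 6 of 9 proteoglycans, 5 of 10 microfibril genes and 6 of 12 transcription factors. Over all 14492 genes tested, that fit called 1573 higher and 1617 lower. In that fit 12 of 12 cardiomyocyte, 12 of 12 endothelial and 7 of 7 erythroid markers were higher, 6 of 10 T and NK cell markers were higher, and 3 of 13 macrophage markers were lower.

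The P16hi against P16lo difference itself did not differ detectably between the populations for any of the 10 genes. The edgeR interaction test called 0 of 14073 genes (0%), while 113 higher (0.803%) and 186 lower genes (1.32%) reached an unadjusted p under 0.05. DESeq2 called 8 genes, none of the 10. The interaction was -2.90 for Cd34 (SE 1.83) and -2.01 for Pdgfra (SE 1.70), the largest in size, both with an adjusted p of 0.9999 in edgeR.

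The genes whose level followed the mean of the 10 most closely were ranked by correlation of log2(CPM + 1). Over all 12 libraries these were Lhfp at a Pearson r of 0.993, then Prelp, Rarres2, Entpd2, Ccdc80, Mmp2, Aebp1, Col6a2, Fstl1 and Mxra8, the last at 0.981. Over the 6 PDGFRα-high libraries they were Calu at 0.997, then Sulf1, Rarres2, Dpysl3, Islr, Morf4l2, Sdc2, Col6a2, Tmem254b and Clec3b, the last at 0.994. Rarres2, which encodes the chemoattractant chemerin, and Col6a2, a collagen VI chain, were in both sets, and they ranked 1 and 3 over the 10 libraries left without both F480-high libraries numbered 3, at 0.996 and 0.993. Of the 10 genes named over 12 libraries, Lhfp and Ccdc80 were also among the first 10 there. Within the resting fibroblast genes, Cd34 followed the mean of the others least, at an r of 0.78 over 12 libraries and 0.92 over those 10.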

How the data were processed

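For each gene and library the authors deposited TPM, FPKM, estimated counts and, as a signal not used here, a normalised read count, per the file headers, with 1 table per sorted population. The submitters' processing notes name HISAT, GRCm38 and mm10; not given in the sources used here are the counting tool and its strand setting, so overlapping genes carry uncertain counts. The columns of a table came in a pair of blocks, joined here by gene identifier with genes unlisted in a block set to 0. The rounded counts were fitted in edgeR 4.0.16 (R 4.3.3, filterByExpr, minimum count 10, TMM, robust quasi-likelihood test, Benjamini-Hochberg over all genes tested, threshold 0.05). P16hi was compared with P16lo within each table, and the population difference and the interaction were fitted over all 12 libraries. TPM were rebuilt from the deposited FPKM for levels between genes. Scaling, filter, DESeq2 1.42.0, limma 3.58.1 on log2(TPM + 1), column block, replicate block and left-out libraries were tried as alternatives, 3 of them added after the data were seen. The fit was run on simulated counts for the PDGFRα-high and the population comparison only. These had the same dispersion for every gene and no differences in cell makeup between libraries. Their setting is simpler than these data, so they do not show how the fit performs here. All 10 genes are named; from other lists, up to 3 genes of smallest p. The genes and lists were chosen with earlier results of these data known. Promoters come from RefSeq, GRCm38.p6. Depth, 3.16 M to 27.9 M counts, limits the lowest genes.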

Additional observations from a re-analysis of the deposited data

How the results depend on the processing

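All 10 differences between PDGFRα-high and F480-high cells kept their direction in every alternative run, but the counts moved. Against 892 genes, DESeq2 called 3218, limma 1799 on deposited log2(TPM + 1) and 774 on TPM rebuilt from FPKM, and leaving out both F480-high libraries numbered 3 gave 3190, or 3381 with PDGFRα-high P16lo library 1 left out too. With 1 library left out, 0 to 2786 genes and 0 to 9 of the 10 were called. For P16hi against P16lo, 0 of the 10 were called in any alternative. In PDGFRα-high cells, against 0 genes, 39 were called with library totals, 23 with no filter, 304 by DESeq2, 177 by limma, and 0 to 17 with 1 library left out. In F480-high cells DESeq2 called 3 genes, and for the interaction 8. The cause was not tested.

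Same-numbered libraries did not deviate together in every pair. Their r ran from -0.30 to 0.46 within a population and from -0.30 to 0.58 between populations. Between populations 5 of 12 same-numbered pairs and 3 of 24 other pairs were above 0.1, at a median of 0.0698 and -0.036. The main fits did not pair libraries by number, and whether same-numbered libraries share hearts cannot be told from these values. With the replicate block, 579 genes and 0 of the 10 were called between the populations, against 892 and 7 without it. This block moved the median log2 fold change of the 10, P16hi against P16lo in PDGFRα-high cells, from -1.08 to 0.039. In PDGFRα-high cells the block put Pdgfra at 0.20, Dcn at 0.44, Lum at 0.73 and Mfap5 at 0.33, and in F480-high cells Tcf21 at 0.0608 and Lum at 0.26.

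Signs also turned elsewhere, always without a call. In PDGFRα-high cells library totals put Dcn at 0.12 and Lum at 0.50, and limma put Pdgfra at 0.58, Tcf21 at 0.20, Dcn at 1.21, Lum at 1.48, Dpt at 0.59, Gsn at 0.12, Mfap5 at 1.10, Pi16 at 0.57 and Cd248 at 0.46. With 1 library left out the ranges were Pdgfra -2.05 to 2.14, Tcf21 -2.44 to 1.20, Dcn -1.49 to 1.86, Lum -0.74 to 1.64, Dpt -2.15 to 1.24, Gsn -2.35 to 0.81, Mfap5 -1.41 to 1.67, Pi16 -2.24 to 1.39, Cd248 -2.05 to 1.35 and Cd34 -0.36 to 1.80. In F480-high cells the column block gave Tcf21 1.80, Dcn 0.40, Lum 2.14, Dpt 0.57, Mfap5 0.32 and Cd248 1.41. Limma on the deposited TPM gave Tcf21 0.05905, Dcn 0.19, Lum 0.52, Dpt 0.22, Gsn 0.17 and Mfap5 0.19. Those TPM include P16hi library 3, whose TPM did not follow its own FPKM, as described below. On rebuilt TPM only Tcf21 at 0.0001017 and Lum at 0.36 turned. Without both libraries numbered 3, Cd34 was -0.66. With 1 library left out, Tcf21 ran from -0.93 to 0.25, Pi16 from -0.19 to 0.98 and Cd34 from -0.17 to 3.803.

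For the interaction, library totals put Dpt at 0.10. Limma on the deposited TPM put Pdgfra at 0.39, Tcf21 at 0.14, Dpt at 0.36 and Pi16 at 0.12, and on rebuilt TPM Pdgfra at 0.36, Tcf21 at 0.20, Dpt at 0.86, Gsn at 0.50 and Pi16 at 0.19. Without both F480-high libraries numbered 3, Cd34 was 0.99. With 1 library left out the ranges were Pdgfra -2.75 to 1.41, Tcf21 -2.09 to 1.66, Dcn -0.68 to 2.70, Dpt -1.21 to 2.21, Gsn -1.78 to 1.43, Mfap5 -0.46 to 2.68, Pi16 -2.70 to 0.94, Cd248 -0.76 to 2.69 and Cd34 -3.46 to 0.50.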

Other observations

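The deposited TPM of F480-high P16hi library 3 did not follow its own FPKM. The ratio of TPM to FPKM ran from 0.211 to 6.65 between the 1st and 99th percentiles of genes, whereas it was nearly constant in each of the other 11 libraries, and 1402 genes had a TPM above 0 beside an estimated count of 0, against 0 genes in each of the others. Levels between genes were therefore taken from TPM rebuilt from FPKM, while limma was run on the deposited TPM and, as an addition, on the rebuilt TPM.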
